A study of Mus musculus with 6 samples.

Results

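The nuclear-encoded subunits of the mitochondrial respiratory chain were examined in mouse blastocysts measured on 6 Illumina arrays. Their probes were taken by platform gene symbol: every symbol beginning with Nduf other than the Ndufaf assembly factors, every symbol beginning with Uqcr, Cox4i, Cox5, Cox6, Cox7 or Cox8, and Cyc1, Cycs, Sdha, Sdhb, Sdhc and Sdhd. This gave 97 of the 45281 probes on the arrays, for 65 genes. Of these, 82 probes for 58 genes had a detection p-value under 0.05 in both replicates of some group (called above background here) and were tested, and 79 of the 82 were above background on all 6 arrays. The other 15 probes were not tested.

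All embryos were blastocysts of CD-1 mice, an outbred strain, whose mothers had received 5 IU of pregnant mare gonadotropin, 5 IU of human chorionic gonadotropin 44 h later, and had then mated, with the day of the vaginal plug counted as day 1. The uterus group (2 arrays) held uterine embryos of normal pregnancies, and the ICI group (2 arrays) held uterine embryos of mice given 0.5 µg of a compound that the labels call ICI, with a time of 70 h after the second hormone that may be that of the treatment or of the collection. The oviduct group (2 arrays) held embryos recovered on day 4 from oviducts whose ligation is also dated to day 4, so the time under ligation is not known here. The design text gives all embryos as day 3.5 and describes 3 groups of 100 to 120 embryos, without saying whether each array had its own pool or its own mothers. The p-values below therefore reflect no more than the variation between these 6 samples, which could be technical. The series is titled as a study of gene regulation by estrogen in the embryo before implantation.

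The respiratory chain passes electrons from NADH through complex I, or from succinate through complex II, to complex III, and from there by cytochrome c to complex IV, which reduces oxygen. Complexes I, III and IV pump protons across the inner mitochondrial membrane, and ATP synthase uses the resulting gradient. The early embryo depends on oxidation of pyruvate in mitochondria inherited from the egg, and oxygen uptake increases as the blastocoel forms. Several complex IV subunits exist as paired isoforms, one found in most tissues and the other restricted to muscle, testis, lung or low oxygen.

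Mean signals per array lay between 344 and 488, and between 16525 and 18182 probes were above background. The 7 blastocyst markers examined (Cdx2, Eomes, Krt8, Krt18, Pou5f1, Nanog and Gata6) were above background on every array, but their levels differed between groups. In the oviduct group Cdx2 (12.08 and 12.16, against 13.23 and 12.81 in the uterus group), Eomes (8.22 and 7.37, against 8.68 and 9.37) and Krt18 (12.75 and 12.36, against 13.18 and 13.18) lay lower on the log2 scale, without overlap. Nanog (11.64 and 11.49, against 10.72 and 10.78) and Gata6 (12.09 and 12.01, against 11.52 and 11.41) lay higher. Krt8 (13.74 and 13.27, against 13.62 and 13.61) and Pou5f1 (10.28 and 12.20, against 11.50 and 11.40) overlapped. Of all tested probes, 47.3% did not overlap between these 2 groups. Cdx2, Eomes, Krt18 and Krt8 mark the trophectoderm, and Nanog, Gata6 and Pou5f1 the inner cell mass. Krt8 and Pou5f1 thus did not follow the other markers of their lineage. Between ICI and uterus, Cdx2 (12.76 and 12.50 in the ICI group) lay lower without overlap. Pou5f1 (11.86 and 11.85) lay higher, as did Gata6 (11.53 and 11.65) and Krt8 (13.63 and 13.63) by little. Eomes, Krt18 and Nanog overlapped there, and 54% of all tested probes did not. The oviduct arrays stood farther apart than the other pairs, with a root mean square SD of 0.44 on the log2 scale over 17677 tested probes, against 0.25 for the uterus arrays and 0.21 for the ICI arrays. Over the 82 respiratory chain probes the same SDs were 0.27, 0.18 and 0.12. Transcripts of other cell types differed between arrays. The oviduct epithelium marker Ovgp1 had a normalized signal of 91.7 and 326 on oviduct replicates 1 and 2 and of 38.9 and 43.0 on the ICI arrays, where it was above background too, and was not above background on the uterus arrays. The summed signal of 6 stroma and muscle markers was 233 and 522 (oviduct), 222 and 199.8 (uterus) and 211 and 209.5 (ICI). On each array 2 to 4 of the 6 were above background. Dcn was so only in the oviduct group, at 6.14 and 8.32 on the log2 scale, the highest of the 6 on both arrays. Pdgfrb was so only in the uterus group, at 5.31 and 5.10, and Col1a1 only on oviduct replicate 2. Col1a2 was so on uterus replicate 2 and ICI replicate 2, and Acta2 and Des on all 6 arrays. The 4 blood and immune markers summed to 186 and 2005 (oviduct), 1252 and 499.7 (uterus) and 126 and 211 (ICI). The hemoglobin gene Hba-a1 carried the larger sums, at 5.79 and 10.73 (oviduct), 10.18 and 8.67 (uterus) and 5.58 and 6.89 (ICI) on the log2 scale. Ptprc was above background on none, and Lyz2 on neither uterus array. The 3 uterine epithelium markers summed to 2946 and 3262 (oviduct), 5695 and 5208 (uterus) and 4611 and 5229 (ICI), a sum carried by Wfdc2. Prap1 read 10.19 and 8.76 (uterus), 4.56 and 5.08 (ICI) and 4.52 and 4.66 (oviduct) on the log2 scale, and was not above background on ICI replicate 1 or either oviduct array. Ltf read 7.32 and 6.46 (uterus), 4.91 and 5.20 (ICI) and 6.69 and 8.46 (oviduct), and was not above background on ICI replicate 1. The 6 oocyte and early cleavage markers summed to 328 and 515 (oviduct), 329.8 and 3346 (uterus) and 272 and 278 (ICI), with Zp2 above background on none. Gdf9 was the highest of them on uterus replicate 2, at 11.12 on the log2 scale, and read 6.44 to 7.71 on the other arrays. The part of these transcripts, and of the lineage markers, in the values below was not tested. In such pools, fewer cells of a type and less RNA per cell cannot be told apart.

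The promoters of respiratory chain genes are known for sites of the nuclear respiratory factor NRF1, of GABPA and of YY1. RefSeq promoters (GRCm38.p6, 250 bases before to 50 after the start) were matched for 52 of the 65 genes, in 54 windows. The letters GCATGCG, which lie within the NRF1 motif, occurred on either strand in 14.8% of the 54 windows and in 3.58% of all 32851 promoters. The letters CCGGAAG of the GABPA motif occurred in 18.5% and 8.86%, and AAGATGG of the YY1 motif in 13.0% and 6.34%. The 3 motifs do not contain one another, and a match is a description of letters and not a binding site. Both strands of the NRF1 letters overlap in the promoters of the cytochrome c gene Cycs and the complex IV gene Cox6a1. These are shown with the promoters of Uqcrc1 and Ndufs4, which had the smallest p of a respiratory chain gene in complex III and complex I. Capitals mark the NRF1 and GABPA letters, and each sequence is the 250 bases before the start, read 5′ to 3′.
Cycs, chr6:50566570-50566819, minus strand: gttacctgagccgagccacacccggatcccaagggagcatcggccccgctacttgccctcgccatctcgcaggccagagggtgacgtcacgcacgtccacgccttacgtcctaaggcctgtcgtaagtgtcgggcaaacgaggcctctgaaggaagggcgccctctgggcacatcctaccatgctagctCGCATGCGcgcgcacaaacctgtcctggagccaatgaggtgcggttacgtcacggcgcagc
Cox6a1, chr5:115348959-115349208, minus strand: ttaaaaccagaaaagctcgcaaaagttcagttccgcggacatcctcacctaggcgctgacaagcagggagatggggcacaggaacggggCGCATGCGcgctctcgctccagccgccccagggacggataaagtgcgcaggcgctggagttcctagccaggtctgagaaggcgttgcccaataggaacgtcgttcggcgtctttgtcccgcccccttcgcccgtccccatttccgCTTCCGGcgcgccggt
Uqcrc1, chr9:108936398-108936647, plus strand: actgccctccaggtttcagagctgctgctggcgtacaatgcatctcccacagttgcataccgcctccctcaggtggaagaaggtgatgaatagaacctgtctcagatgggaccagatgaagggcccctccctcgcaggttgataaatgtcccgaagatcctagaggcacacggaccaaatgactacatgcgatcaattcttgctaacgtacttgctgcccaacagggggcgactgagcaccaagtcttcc
Ndufs4, chr13:114388095-114388344, minus strand: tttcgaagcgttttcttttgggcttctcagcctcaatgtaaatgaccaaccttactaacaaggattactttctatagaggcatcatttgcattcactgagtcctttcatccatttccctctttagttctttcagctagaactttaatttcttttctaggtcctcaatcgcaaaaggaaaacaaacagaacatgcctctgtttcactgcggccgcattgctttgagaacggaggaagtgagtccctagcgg
The stretches of Uqcrc1 and Ndufs4 hold none of the 3 motifs. In Uqcrc1 the NRF1 letters, and in Ndufs4 the YY1 letters, lie after the start, outside the printed stretch.

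Embryos of ICI-treated mothers were compared with untreated uterine embryos to ask which subunits differ under the treatment. None of the 82 probes passed (limma adjusted p between 0.535 and 0.998), and 0% of all tested probes did. The median log2 difference of the respiratory chain probes, ICI minus uterus, was 0.036, against -0.026 over all tested probes, with 48 of the 82 probes above 0 (58.5%), against 46.3% of all tested probes. At an unadjusted p under 0.05 there were 3 respiratory chain probes (3.66%), of Ndufs4 and Ndufa5 (higher) and Ndufa3 (lower), against 9.23% of all tested probes (5.71% higher and 3.52% lower). That count depended on the settings. With median scaling of the arrays it was 1 (1.22%, against 5.74% of all tested probes). It was 8 with only the 2 groups compared (9.76%, against 19.5%) and 9 with array weights (11.0%, against 20.3%). Without a detection filter the share was 8.25% of the 97 probes, above the 6.99% of all probes. The ICI and uterus arrays did not overlap for 51 probes (62.2%, 30 higher and 21 lower), where 54.0% of all tested probes did not (25.3% higher and 28.7% lower). The 95% interval of the difference lay within 1 on the log2 scale on either side of 0 (a 2-fold change) for 75 probes. That was 91.5% of the 82, against 75.0% of all tested probes.

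Embryos held in ligated oviducts were compared with uterine embryos to ask what differs when embryos stay there. Again no respiratory chain probe passed (limma adjusted p between 0.194 and 0.992), where 0.0509% of all tested probes did. The median log2 difference, oviduct minus uterus, was -0.16, against 0.00028 over all tested probes, and 26 of the 82 probes lay above 0 (31.7%), against 50% of all tested probes. With median scaling of the arrays in place of quantile normalization the median of all tested probes moved to 0.22 and that of the respiratory chain probes to 0.053, so that the direction of the latter flipped while its distance from the former was -0.17. An unadjusted p under 0.05 was reached by 6 probes (7.32%), of Cyc1, Uqcrc1 and Cox5b (lower) and Cox6c, Cycs and Ndufa5 (higher), against 18.5% of all tested probes (9.39% higher and 9.09% lower). The gap between these shares did not hold in every setting. Without a detection filter 20.6% of the 97 probes reached it, against 11.3% of all probes, and without background correction 19.5% of the 82, against 18.9%. With the log2 values processed by the authors it was 13.4%, against 15.5%. With array weights it was 3.66%, against 12.6%, and with only the 2 groups compared 1.22%, against 13.4%. The arrays of the 2 groups did not overlap for 39 probes (47.6%), as for 47.3% of all tested probes. Both oviduct arrays lay below both uterus arrays for 31 probes (37.8%), where 23.8% of all tested probes did, and above them for 8 (9.76%), where 23.5% did. The 95% interval lay within 1 on the log2 scale for 74 of the 82 probes (90.2%), against 67.1% of all tested probes.

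ICI embryos were also compared directly with oviduct embryos. No respiratory chain probe passed (limma adjusted p between 0.0807 and 0.997), where 0.339% of all tested probes did. The median log2 difference, ICI minus oviduct, was 0.14, against -0.0095 over all tested probes. With median scaling it was -0.12 against -0.26, so its sign flipped while it stayed above the median of all tested probes. There were 7 probes at an unadjusted p under 0.05 (8.54%), 5 higher and 2 lower in the ICI group, against 20.7% of all tested probes (10.5% higher and 10.2% lower). Here too the count moved. It was 15 without a detection filter (15.5% of the 97 probes, against 11.9% of all probes). Without background correction it was also 15 (18.3%, against 20.7%). With array weights, or with only the 2 groups compared, it was 5 (6.10%, against 16.3% of all tested probes). Above 0 were 59 of the 82 probes (72.0%), against 49.2% of all tested probes. The arrays did not overlap for 50 probes (61.0%), with 39 higher and 11 lower in the ICI group, where 53.4% of all tested probes did not (26.1% higher and 27.3% lower). The 95% interval lay within 1 on the log2 scale for 71 of the 82 probes (86.6%), against 64.3% of all tested probes. This comparison shares its ICI arrays with the first and its oviduct arrays with the second.

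The calls in the oviduct group turned on single arrays. Without oviduct replicate 2, 13 respiratory chain probes (15.9%) passed a limma adjusted p under 0.05 as higher in the ICI than in the oviduct group, where 15.8% of all tested probes passed in either direction. They belonged to Ndufs4, Ndufa5, Ndufab1, Ndufb6, Ndufc1 (2 probes), Ndufc2, Ndufs6, Cyc1, Uqcrh, Cox5b, Cox7a2l and Ndufa4. Without oviduct replicate 1, 1 probe passed (1.22%), of Cox6b2, as lower in the ICI group, against 5.79% of all tested probes. Against the uterus group, 1 probe passed as lower without oviduct replicate 2, of Cox5b (1.22%, against 2.47%), and 0 did without oviduct replicate 1 (against 8.58%). The shares in these fits are of probes passing in either direction, and those of all tested probes were not split by direction. In each of these fits the single remaining oviduct array was assumed to vary like the other groups.

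**Figure D1:**
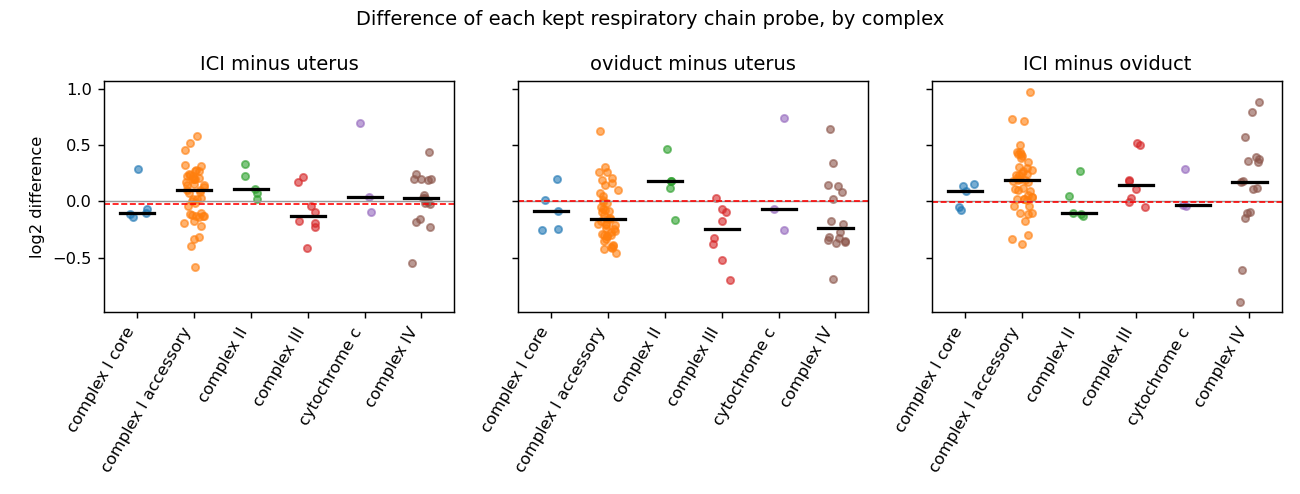
Each point is 1 tested respiratory chain probe, placed by its complex (horizontal axis) and its log2 difference (vertical axis) in the comparison named above the panel. Black bars are medians of a complex and the red dashed line is the median of all 17677 tested probes. No point passed the test. The largest differences, both between the ICI and oviduct groups, were 0.97 for an Ndufs4 probe and -0.89 for a Cox6b2 probe of low signal.

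**Figure D2:**
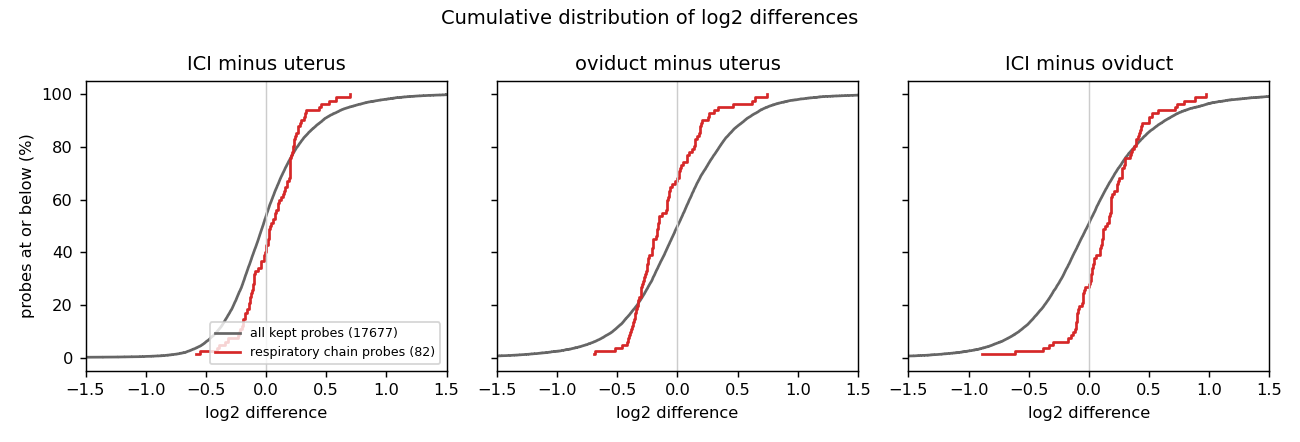
Cumulative share of probes (vertical axis, %) at or below a log2 difference (horizontal axis, shown from -1.5 to 1.5) for the 82 respiratory chain probes and for all tested probes. The respiratory chain curve is steeper than the other in each panel. Median absolute differences are 0.17 against 0.21 (ICI and uterus), 0.21 against 0.27 (oviduct and uterus) and 0.18 against 0.29 (ICI and oviduct). The median SE is also smaller, 0.195 against 0.222 in each comparison. No background of probes of like signal was drawn.

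Complex I, the NADH dehydrogenase, was represented by 6 core probes and 48 accessory probes. Core subunits carry the flavin and iron-sulfur clusters or the quinone site. Of 6 core genes, 5 were tested, and their median log2 differences were -0.10 (ICI minus uterus), -0.087 (oviduct minus uterus) and 0.090 (ICI minus oviduct). Ndufv1, which binds NADH and flavin, had log2 signals of 12.79 and 12.80 (uterus), 12.68 and 12.70 (ICI) and 12.53 and 12.54 (oviduct). The 3 groups did not overlap, in the order uterus, ICI and oviduct, and the largest of the 3 differences was -0.26 (SE 0.17, limma adjusted p = 0.447), oviduct minus uterus. Ndufs3, a core subunit near the quinone site, differed by 0.29 (SE 0.20, limma adjusted p = 0.663) between ICI and uterus. Its signals were 11.14 and 11.32 (uterus), 11.50 and 11.54 (ICI) and 11.25 and 11.60 (oviduct). The first 2 groups did not overlap, and the oviduct arrays overlapped both. Ndufs1, which carries iron-sulfur clusters, was above background on 1 ICI array only and was not tested.

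Among the 45 accessory probes tested, 29 lay above 0 between ICI and uterus and 33 lay below 0 between oviduct and uterus, with medians of 0.096 and -0.16. Ndufs4 encodes an accessory subunit whose loss in mice impairs complex I and causes a brain disease resembling Leigh syndrome. Its probe of highest signal read 10.90 and 11.09 (uterus), 11.58 and 11.57 (ICI) and 10.45 and 10.76 (oviduct). Both ICI arrays stood above all others and both oviduct arrays below. The difference was 0.97 (SE 0.19) between ICI and oviduct, a 1.96-fold higher signal with a 95% interval of 0.51 to 1.43, which had the smallest adjusted p of any respiratory chain probe in the 3 comparisons (limma adjusted p = 0.0807). Between ICI and uterus it was 0.58 (SE 0.19, limma adjusted p = 0.535), and between oviduct and uterus -0.40 (SE 0.19, limma adjusted p = 0.329). The gene's other 3 probes did not share this order. They differed by between 0.010 and 0.10 from oviduct to ICI, and by between 0.15 and 0.30 from uterus to oviduct, while all 4 probes were above 0 between ICI and uterus (0.25 to 0.58).

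Ndufa5, an accessory subunit of the matrix arm, had 1 probe at 7.21 and 7.64 (uterus), 7.94 and 7.94 (ICI) and 7.98 and 8.11 (oviduct). Its uterus arrays lay below all others, with differences of 0.62 (SE 0.21, limma adjusted p = 0.194) from uterus to oviduct and 0.52 (SE 0.21, limma adjusted p = 0.539) from uterus to ICI. The second probe of the gene differed by -0.31 and 0.10 in the same comparisons. Ndufa3, a small subunit of the membrane arm, had signals of 11.42 and 11.03 (uterus), 10.59 and 10.69 (ICI) and 11.02 and 11.02 (oviduct) on 1 probe, with the ICI arrays lowest. Its difference was -0.58 (SE 0.20, limma adjusted p = 0.535), ICI minus uterus, and its second probe gave -0.39 (SE 0.19). Ndufab1, the mitochondrial acyl carrier protein and also a complex I subunit, gave 0.73 (SE 0.26, limma adjusted p = 0.193), ICI minus oviduct, on 1 of 4 probes and between 0.034 and 0.21 on the others.

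Other accessory subunits named by the rule differed less or were less even between arrays. Ndufc2, of the membrane arm, differed by 0.72 (SE 0.30, limma adjusted p = 0.238) between ICI and oviduct, with 10.52 and 11.37 on the oviduct arrays and 11.59 and 11.73 on the ICI arrays. Ndufs6, a zinc-binding subunit, had differences of -0.34 (ICI) and -0.30 (oviduct) from the uterus group on its probe of highest signal, while its second probe gave 0.15 and -0.29. Ndufv3, an accessory subunit of the NADH-binding part, had -0.31 (SE 0.18, ICI minus uterus) and -0.35 (SE 0.18, oviduct minus uterus) on 1 of 3 probes. Ndufa11, of the membrane arm, gave -0.42 (SE 0.19, limma adjusted p = 0.309), oviduct minus uterus, and Ndufa12, of the matrix arm, -0.18 (SE 0.18), ICI minus oviduct. The probe of the pseudogene Ndufs5-ps, which may read transcripts of its parent gene, gave -0.30 (SE 0.20), ICI minus oviduct. Ndufb11, of the membrane arm, had the third largest SD between replicates of any respiratory chain probe (0.57, between ICI signals of 6.03 and 5.23).

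Complex II, the succinate dehydrogenase shared with the tricarboxylic acid cycle, had 5 of 7 probes tested, for 3 of 4 genes. All 5, of which 3 are of Sdhb, were above 0 between ICI and uterus (0.016 to 0.33) and 4 of 5 between oviduct and uterus. The medians were 0.11 and 0.18. The first median is the value of an Sdhb probe that passed the filter only through the ICI group. That probe was above background on both ICI arrays and on 1 array of each other group, so its sign is not independent of the filter. Sdhd, a membrane anchor, read 6.91 and 7.28 (uterus), 7.42 and 7.43 (ICI) and 7.59 and 7.52 (oviduct), the uterus arrays lowest and the oviduct arrays highest. Its differences from uterus were 0.46 (SE 0.20, limma adjusted p = 0.273) for oviduct and 0.33 (SE 0.20, limma adjusted p = 0.621) for ICI. The other anchor, Sdhc, differed by 0.12 (SE 0.17), oviduct minus uterus, and its 6 signals lay between 10.80 and 10.93. Sdhb, the iron-sulfur subunit, gave 0.23 and 0.18 (SE 0.17 each) against uterus for ICI and oviduct on its probe of highest signal. Sdha, the flavoprotein, was above background on no array and was not tested.

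Complex III, the cytochrome bc1 complex, had 8 of 11 probes tested, and 7 of these 8 lay below 0 between oviduct and uterus (median -0.25) and 6 of 8 between ICI and uterus (median -0.13). Uqcrc1, a core protein that carries no redox centre, read 12.72 and 12.60 (uterus), 12.24 and 12.26 (ICI) and 12.24 and 12.05 (oviduct). Both other groups lay below the uterus arrays, by -0.52 (SE 0.18, limma adjusted p = 0.201) for oviduct, 1.43-fold lower, and by -0.41 (SE 0.18, limma adjusted p = 0.544) for ICI, 1.33-fold lower. Its partner Uqcrc2 did not share this, with differences of 0.029 (SE 0.17) for oviduct and 0.21 (SE 0.17) for ICI. Cyc1, cytochrome c1, read 12.14 and 11.89 (uterus), 11.73 and 11.96 (ICI) and 10.95 and 11.69 (oviduct). The oviduct arrays were lowest but far apart, and the difference was -0.69 (SE 0.28, limma adjusted p = 0.251), oviduct minus uterus. Uqcrh, the hinge protein that helps cytochrome c dock, gave 0.50 (SE 0.20, limma adjusted p = 0.224), ICI minus oviduct. Of the small subunits, Uqcr10 had signals between 13.95 and 14.14 over the 6 arrays on its probe of highest signal, Uqcrq between 7.68 and 8.09, and Uqcr11 between 12.09 and 12.65. Neither of 2 probes of Uqcrfs1, the Rieske iron-sulfur protein, was above background on any array.

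Cycs, the somatic cytochrome c that also triggers apoptosis when released, had 3 probes tested. The probe of highest signal read 11.83 and 11.96 (uterus), 11.97 and 11.89 (ICI) and 11.86 and 11.42 (oviduct), and the groups overlapped except that oviduct lay below ICI. Its differences were 0.040 (SE 0.21), ICI minus uterus, and -0.25 (SE 0.21), oviduct minus uterus. Another probe, not above background on 1 uterus array, read 5.10 and 5.49 (uterus), 5.88 and 6.11 (ICI) and 6.43 and 5.65 (oviduct), lowest on the uterus arrays. It gave 0.74 (SE 0.30, limma adjusted p = 0.251), oviduct minus uterus, and 0.70 (SE 0.30, limma adjusted p = 0.541), ICI minus uterus. The remaining probe gave -0.098 (SE 0.18), ICI minus uterus, and -0.068 (SE 0.18), oviduct minus uterus, so the 3 probes of the gene did not share a sign in either comparison.

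Complex IV, cytochrome c oxidase, had 16 of 22 probes tested, counting Ndufa4, first described as a complex I subunit. The medians were 0.029 (ICI minus uterus), -0.24 (oviduct minus uterus) and 0.17 (ICI minus oviduct). Cox4i1, the common isoform of the largest nuclear-encoded subunit, read 13.81 and 13.74 (uterus), 13.61 and 13.57 (ICI) and 13.33 and 13.49 (oviduct), without overlap between the groups, and differed by -0.37 (SE 0.17, limma adjusted p = 0.315) between oviduct and uterus. Cox5b, a subunit on the matrix side, read 11.12 and 11.19 (uterus), 11.25 and 11.45 (ICI) and 10.07 and 10.86 (oviduct) on 1 probe. The oviduct arrays were lowest, by -0.69 (SE 0.28, limma adjusted p = 0.256) against uterus, while ICI minus oviduct was 0.88 (SE 0.28, limma adjusted p = 0.162). Its probe of higher signal gave -0.36 and 0.36 (SE 0.17 each) with the 2 oviduct arrays at 13.25 and 13.32. Without oviduct replicate 2 the first of these probes passed as lower against uterus (difference -1.09, limma adjusted p = 0.0496).

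Cox6c, a subunit of the inner membrane, ran the other way, at 10.70 and 11.19 (uterus), 10.95 and 11.00 (ICI) and 11.76 and 11.42 (oviduct). Both oviduct arrays were above all others, with differences of 0.64 (SE 0.23, limma adjusted p = 0.215) from uterus and -0.61 (SE 0.23, limma adjusted p = 0.212), ICI minus oviduct. Cox7a2l, an isoform relative that helps complexes III and IV associate, had the largest SD between replicates of all the respiratory chain probes (0.89), with 9.55 and 10.82 (oviduct), 10.40 and 10.68 (uterus) and 10.95 and 11.00 (ICI). Its difference was -0.35 (SE 0.39, limma adjusted p = 0.664), oviduct minus uterus, 0.28 without oviduct replicate 1 and -0.98 without oviduct replicate 2. Cox5a, the partner of Cox5b, stayed between 13.29 and 13.54 on the 6 arrays, and Cox6b1, on the cytochrome c side, between 13.19 and 13.60 on its probe of highest signal. Cox6a1 differed by 0.20 (SE 0.20), ICI minus uterus, and -0.20 (SE 0.20), oviduct minus uterus, on its probe of highest signal, and Ndufa4 by 0.24 (SE 0.25) and -0.33 (SE 0.25).

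Of the complex IV isoforms known from muscle, testis, lung or low oxygen, 4 were not tested: Cox4i2, the isoform of lung and low oxygen, Cox7b2 and Cox8c of testis, and Cox8b of muscle. Cox8c was above background on 1 oviduct array and the other 3 on none. Cox7a1, the heart and muscle isoform, had signals from 8.52 to 8.86 on the 6 arrays, and no difference over 0.10 in size. Its widely expressed counterpart Cox7a2 ran from 7.77 to 8.45, with both of these values on oviduct arrays. Cox6a2, the muscle isoform, was above background on 5 of 6 arrays, at 4.94 to 5.59, and gave -0.34 (SE 0.24, limma adjusted p = 0.480), oviduct minus uterus. Cox6b2, the testis isoform, read 6.02 and 5.68 (uterus), 5.23 and 5.37 (ICI) and 5.92 and 6.46 (oviduct) on its 1 tested probe. The ICI arrays were lowest, with a difference of -0.89 (SE 0.24, limma adjusted p = 0.131), ICI minus oviduct, or 1.85-fold lower. The difference, ICI minus uterus, was -0.55 (SE 0.24, limma adjusted p = 0.550). The ICI signals lay near the lowest value above background on those arrays (4.98 and 5.07), and the size depended on processing. With the authors' processed values ICI minus uterus was -0.24, and without background correction -0.25. Signals of different probes depend on their sequence, and no order of transcript levels between genes is drawn from them. The mean log2 signals of the tested probes ran from 5.25 (Cox6a2) to 14.07 (Uqcr10).

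**Figure D3:**
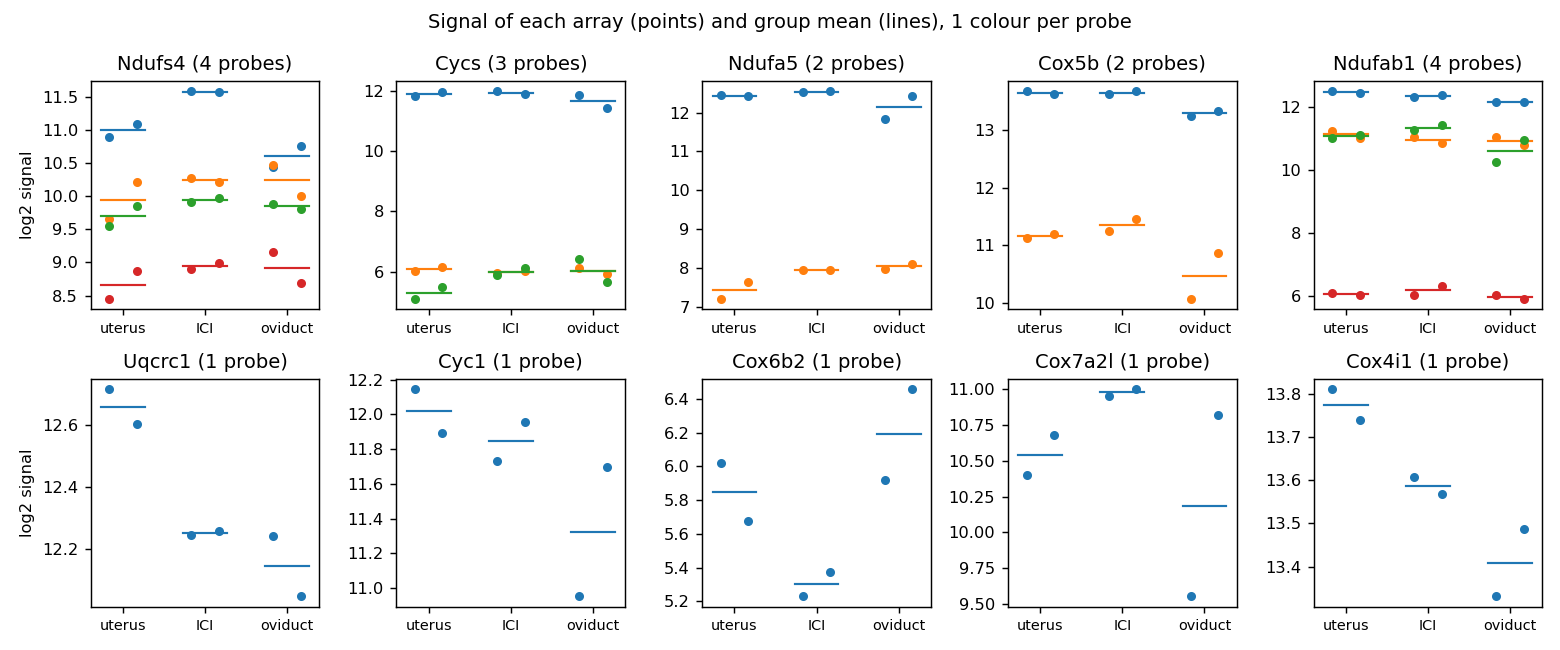
Log2 signal (vertical axis) of each array for all tested probes of 10 respiratory chain genes, with 2 arrays per group and 1 colour per probe. Points are arrays, lines are group means, and each panel has its own vertical scale. The panels for Ndufs4, Cycs and Ndufa5 show probes of 1 gene in different orders, and those for Cox7a2l and Cyc1 show oviduct arrays standing apart.

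Where a gene had more than 1 tested probe (17 genes), its probes had the same sign in 9 genes between ICI and uterus, in 12 between oviduct and uterus and in 12 between ICI and oviduct. The median span between the highest and lowest log2 difference within such a gene was 0.19, 0.16 and 0.23, close to the median SE of a respiratory chain difference (0.195). Cycs, with a span of 0.99 between oviduct and uterus, and Ndufs4, with 0.96 between ICI and oviduct, were among the least even.

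Between the oviduct arrays, 12 of the 82 probes (14.6%) were lower on replicate 1 than on replicate 2 by over 0.5 on the log2 scale, as were 15.0% of all tested probes, and 3 (3.66%) were higher by over 0.5, against 18.8%. The 12 included probes of Cox7a2l (-1.26), Ndufc2 (-0.84), Cox5b (-0.79), Cyc1 (-0.74), Ndufab1 (-0.70) and Ndufa4 (-0.69). The 3 higher ones were of Cycs (0.78), Cox7a2 (0.69) and Cox7b (0.51), a small complex IV subunit.

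**Figure D4:**
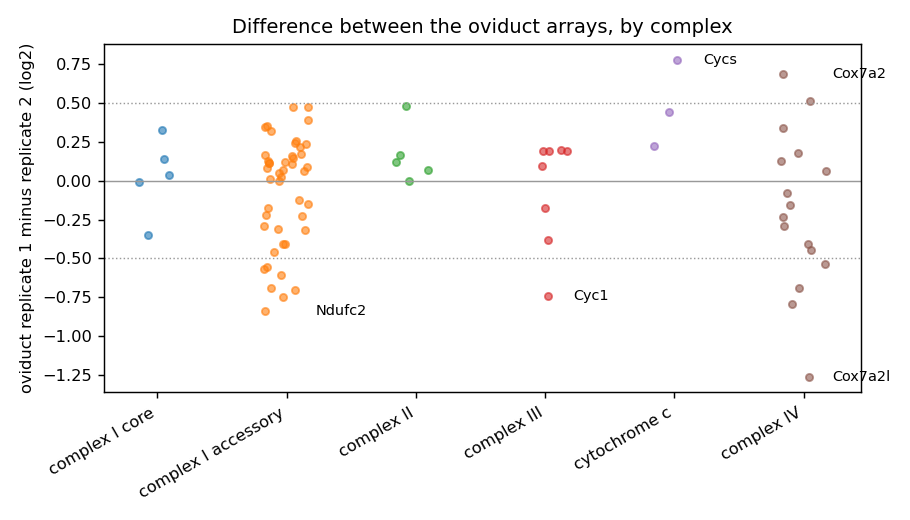
Difference between the 2 oviduct arrays (replicate 1 minus replicate 2, log2, vertical axis) for each tested respiratory chain probe, by complex, with dotted lines at 0.5 and -0.5. Points run from -1.26 (Cox7a2l) to 0.78 (a Cycs probe), and no complex II or complex I core probe is past a dotted line.

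Other mitochondrial genes gave the following values, with lists chosen by symbol and known role. No probe of ATP synthase (25 tested probes of 16 genes), the mitochondrial ribosome (113 of 74), the assembly factors (56 of 36), the tricarboxylic acid cycle (26 of 15), mitochondrial import and the inner membrane (44 of 26) or the regulators of respiratory genes (26 of 18) passed in limma in either direction in any of the 3 comparisons. Median log2 differences between oviduct and uterus were -0.13 for ATP synthase, 0.053 for the mitochondrial ribosome, 0.22 for the assembly factors, -0.0072 for the tricarboxylic acid cycle, -0.00057 for the import list and 0.060 for the regulators, against 0.00028 over all tested probes. Between ICI and uterus they were, in the same order, 0.098, 0.023, 0.053, 0.092, -0.092 (18 of 44 probes above 0) and 0.018, against -0.026. The shares of these probes at an unadjusted limma p under 0.05 are given in the same order. Between oviduct and uterus they were 0%, 8.85%, 8.93%, 23.1%, 11.4% and 15.4%, against 18.5% of all tested probes. Between ICI and uterus they were 4%, 3.54%, 10.7%, 11.5%, 0% and 15.4%, against 9.23%. Between ICI and oviduct they were 20%, 12.4%, 14.3%, 11.5%, 15.9% and 23.1%, against 20.7%.

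In each of these lists the probes of smallest p are described, which says nothing of other probes of the same gene. Among the regulators, Gabpa, which encodes the ETS factor whose letters were counted above, had signals of 4.58 and 4.69 (uterus, not above background), 5.65 and 5.75 (ICI) and 5.39 and 5.39 (oviduct) on 1 probe. Its limma adjusted p was 0.535 between ICI and uterus and 0.114 between oviduct and uterus. Nrf1 read 9.86 and 9.68 (uterus), 9.59 and 9.60 (ICI) and 9.30 and 8.85 (oviduct), lowest on the oviduct arrays, with a difference of -0.70 (SE 0.21, limma adjusted p = 0.169), oviduct minus uterus. Hif1a, of the oxygen response, differed by 1.03 (SE 0.20, limma adjusted p = 0.535), ICI minus uterus, and Myc, above background on 5 of 6 arrays, by 1.25 (SE 0.22, limma adjusted p = 0.0692), ICI minus oviduct. Among assembly factors, Lrpprc, which stabilises mitochondrial transcripts, read 7.12 and 7.44 (uterus), 8.26 and 8.45 (ICI) and 7.52 and 8.03 (oviduct), with a difference of 1.07 (SE 0.24, limma adjusted p = 0.535), ICI minus uterus. Sdhaf1, an assembly factor of complex II, differed by 0.57 (SE 0.18, limma adjusted p = 0.175), oviduct minus uterus, and -0.93 (SE 0.18, limma adjusted p = 0.0762), ICI minus oviduct. In the tricarboxylic acid cycle, Suclg2, of succinyl-CoA synthetase and above background on 5 of 6 arrays, differed by 1.42 (SE 0.47, limma adjusted p = 0.535), ICI minus uterus, and Ogdh, of 2-oxoglutarate dehydrogenase, by -0.85 (SE 0.24, limma adjusted p = 0.149), oviduct minus uterus. The mitochondrial ribosome gene Mrps6 differed by 0.72 (SE 0.17, limma adjusted p = 0.122), oviduct minus uterus, and Mrpl15 by 1.03 (SE 0.19, limma adjusted p = 0.0720), ICI minus oviduct. Atp5o, of the ATP synthase stalk, differed by 0.72 (SE 0.19, limma adjusted p = 0.127), ICI minus oviduct, and the import gene Timm8a2 by 1.03 (SE 0.20, limma adjusted p = 0.0904), oviduct minus uterus.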

How the data were processed

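Embryo RNA was labelled by linear amplification with biotin, according to the labels. The authors deposited, per the file headers, a mean bead intensity for each of 45281 probes and 6 arrays, the count of beads behind it, its standard error over beads (a signal never below 0) and a detection p-value. These intensities carry no normalization across arrays. A second set of log2 values deposited by the authors has no stated method. Tested on the files, each differs from the log2 intensity by 1 shift for its array and 1 for its probe (largest residual 0.00172), and how the probe shift was chosen is unknown. Per-array medians of these values were 0.082 and 0.022 (uterus), -0.0040 and 0.036 (ICI) and -0.11 and -0.075 (oviduct).

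The function neqc of limma 3.58.1 (R 4.3.3) corrected the background, added an offset of 16, applied quantile normalization and took log2. The filter on the detection p-value left 17677 probes to test. lmFit and eBayes fitted all 6 arrays jointly, 1 mean for each of 3 groups (3 degrees of freedom from residuals and 3.77 from the prior), with two-sided tests and Benjamini-Hochberg adjustment over all tested probes at 0.05. SE is that of the log2 difference, and 95% intervals use the moderated degrees of freedom without adjustment for the number of probes. The steps were tested on simulated data. A median of 43 or 44 beads stood behind a value, and precision is limited by the number of arrays.

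Platform symbols named 34885 probes (18 have several symbols and 10378 none). All 65 member genes matched RefSeq by gene identifier. Members and lists were chosen with earlier results of these data known. Named genes are, per comparison, up to 5 higher and 5 lower by p among members with non-overlapping arrays, then a list of 27 subunits (25 with a probe, 19 tested), the probes of highest and lowest signal per complex, the 3 of largest replicate SD, and up to 2 of smallest p per other list, of which not all are printed. Alternatives changed the normalization, background correction, detection filter, samples, weights and replicate block, and left out each array in turn. Plots used matplotlib 3.10.9 (Python 3.11.15).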

Additional observations from a re-analysis of the deposited data

How the results depend on the processing

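No respiratory chain probe passed in any of the 3 comparisons under the alternatives that left out no array. With arrays left out, the count passing ran from 0 to 13 between ICI and oviduct and from 0 to 1 between oviduct and uterus. The median log2 difference of the probes was 0.0054 (ICI minus uterus), 0.053 (oviduct minus uterus) and -0.12 (ICI minus oviduct) with median scaling, and -0.024 (ICI minus uterus) and 0.053 (ICI minus oviduct) with the authors' processed values. It was -0.086 (oviduct minus uterus) and 0.11 (ICI minus oviduct) without a detection filter, and 0.11 (ICI minus oviduct) without background correction. Leaving out arrays gave 0.030 to 0.068, -0.19 to -0.077 and 0.076 to 0.17. Set against the median of all tested probes, the members' median kept its sign throughout: 0.033 to 0.064, -0.17 to -0.085 and 0.073 to 0.15 with no array left out. Over all tested probes, the calls between oviduct and uterus numbered 9, and 38 with median scaling, 34 without background correction, 1 without a detection filter and 0 with the authors' values, array weights or only the 2 groups compared. Between ICI and oviduct they numbered 60, and 123 without background correction, 20 with the authors' values, 11 with array weights, 4 without a detection filter and 0 with only the 2 groups compared. Leaving out an array gave 0 to 1516 and 0 to 2800. Between ICI and uterus the count was 0 in every limma fit, with 9.23% of probes at an unadjusted p under 0.05 as reported, 20.3% with array weights and 2.22% without uterus replicate 1.

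Some differences, none past the threshold, changed sign. With median scaling these were, between ICI and oviduct, Sdhb (-0.29), Uqcrc1 (-0.17), Cox7a2 (-0.17), Cox6b1 (-0.12), Ndufv1 (-0.086) and Uqcrc2 (-0.068), between ICI and uterus Sdhc (-0.069) and Cycs (-0.039), and Cox6a1 (0.016) between oviduct and uterus. With the authors' values they were Sdhc (-0.086) and Cycs (-0.057), ICI minus uterus, and Sdhb (-0.10), ICI minus oviduct. Without single arrays the ranges, ICI minus uterus, were -0.028 to 0.023 (Cox5b), -0.50 to 0.040 (Cox6a2), -0.16 to 0.12 (Cox7a1), -0.027 to 0.11 (Cycs) and -0.0097 to 0.042 (Sdhc). For oviduct minus uterus they were -0.40 to 0.0045 (Cox6a1), -0.060 to 0.22 (Cox7a1), -0.32 to 0.36 (Cox7a2), -0.98 to 0.28 (Cox7a2l), -0.67 to 0.017 (Ndufa4) and -0.065 to 0.12 (Uqcrc2). For ICI minus oviduct they were -0.16 to 0.38 (Cox6a2), -0.22 to 0.018 (Cox7a1), -0.17 to 0.51 (Cox7a2) and -0.016 to 0.11 (Sdhb). The cause was not tested.

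The labels do not say whether arrays of the same replicate number share an animal or batch. Deviations of same-numbered arrays correlated at 0.13 (uterus with ICI), 0.23 (uterus with oviduct) and 0.066 (ICI with oviduct) across probes. With replicate number as a block, 0 respiratory chain probes passed in each comparison, the medians were unchanged at 0.036, -0.16 and 0.14, and over all probes the calls became 0 in place of 9 (oviduct minus uterus) and 5 in place of 60 (ICI minus oviduct).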
